A study of Mus musculus with 6 samples.

Results

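The genes described here encode enzymes and membrane proteins of the lysosome, the acidic compartment in which cells break down proteins, sugars and lipids, and they were taken from a list of 40 symbols. A symbol was measured where a probe set carried it alone in the array annotation, and 39 of the 40 were, among 22180 genes in all. Glb1, which encodes beta-galactosidase, has no value because its probe set carried 2 symbols. RNA came from cells labelled tumor-associated endothelial cells, which had been pulled from mouse gliomas with magnetic beads against CD105 and then exposed to glioma-conditioned medium over 12 h. Cells of 3 mice had the genotype Tie2-Cre,Pfn1fl/fl:Y129F (mice 1, 3 and 4, the Tie2-Cre group), and cells of 3 mice had Pfn1fl/fl:Y129F alone (mice 6, 7 and 10, called no Cre). Both groups thus carried the floxed Pfn1 alleles and the Y129F form, and they differed by the Cre transgene. Tie2-Cre is driven by the promoter of Tek, the gene of the receptor Tie2, which is also known to be active in blood-forming cells and some macrophages. What Cre does to the Y129F form and the age of the mice are not stated in the labels. By its title, the study concerns phosphorylated profilin-1, which binds actin, and its role in gene expression.

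Lysosomal hydrolases are made in the endoplasmic reticulum, tagged with mannose 6-phosphate and carried to the lysosome by receptors for that tag, and the lumen is kept acidic by a proton pump, the V-ATPase. Many of their genes are controlled by TFEB and its relatives, which bind a short DNA element built around the E-box core CACGTG. In endothelial cells and in the stroma of tumors, cathepsins that leave the cell also cut matrix proteins.

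The 2 groups were set apart by more than the lysosomal genes. Pfn1 averaged 12.41 ± 0.0045 with Tie2-Cre and 12.37 ± 0.026 without Cre (log2 RMA intensity, SD, n = 3 each; adjusted p 0.776), and whether its probe set separates the Y129F form is not stated. Xist, the RNA of the inactive X chromosome, ranged over 5.36 to 6.06 with Tie2-Cre, against 11.16 to 11.44 without Cre, and all 3 measured Y-linked genes were higher with Tie2-Cre, so that Cre and sex cannot be told apart in any comparison here. Of 14 endothelial markers, 1 was higher and 1 lower with Tie2-Cre. The higher one, the VEGF receptor Flt1, changed by 1.11 (SE 0.253, adjusted p 0.0272), and it missed the threshold when mouse 6, 7 or 10 was left out (0.0655 to 0.0909). The endothelial adhesion molecule Pecam1 averaged 6.24 with Tie2-Cre and 6.23 without Cre, and Eng, the gene of CD105, was lower (log2 change -0.30, SE 0.0639, adjusted p 0.0217; 0.0571 to 0.0827 without mouse 1, 4, 6, 7 or 10). The median level of the 14 endothelial markers was 6.23 with Tie2-Cre and 6.18 without Cre, below that of all genes (7.11 and 7.12). Fibroblast markers had medians of 10.38 and 9.96 in that order, and pericyte and smooth muscle markers 9.38 and 8.59. Which cells the lysosomal values come from was not tested. The deposited values carry no detection calls, and which endothelial markers were present cannot be read from them. The number of arrays, 3 a group, limits the precision throughout.

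Lysosomal genes differed between the groups in 11 cases of 39. Lower were the membrane protein Scarb2, the cysteine cathepsins Ctsh, Ctsc and Ctsf, the ganglioside-binding cofactor Gm2a, the sulfatase Arsb and the glycogen-degrading enzyme Gaa. Higher were the cathepsin Ctso, the sulfatase Sgsh, the fucosidase Fuca1 and the cholesterol transporter Npc1. The changes ran from -0.81 to 0.59 on the log2 scale, and the median size of the 11 was 0.43. Each was taken from limma with an adjusted p under 0.05 over all 22180 genes, and a change is the log2 intensity with Tie2-Cre minus that without Cre.

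The 11 are 28.2% of the measured members, 4 higher and 7 lower. Over all genes, 12.0% passed the same threshold, 4.78% higher and 7.17% lower. Among the 11652 genes with a mean log2 intensity of at least 7, where precision is better, 19.1% passed, and 38 of the 39 members, with all 11 called ones, belong to that class. The median change over the 39 members was -0.05, against -0.0042 over all genes, and the median size of a change was 0.16 against 0.11. The 3 arrays of each group did not overlap in 22 of the 39 members, 8 higher and 14 lower. The share over all genes was 31.0%, which was not matched for intensity. Since these are bulk samples, fewer cells of a type and less RNA per cell cannot be told apart in any of these values.

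**Figure D1:**
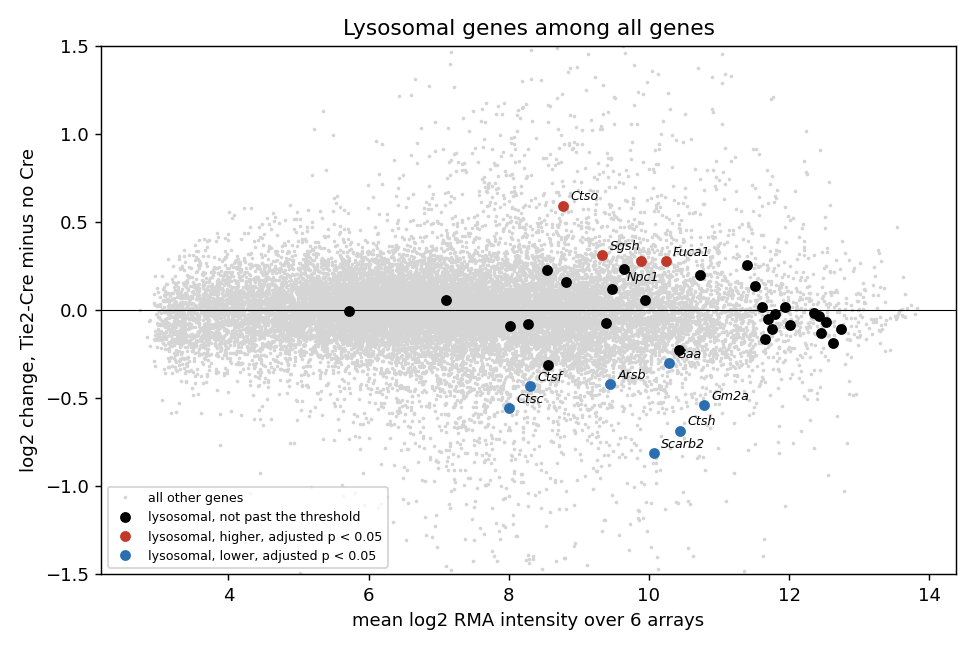
Each point is a gene, with its mean log2 RMA intensity over the 6 arrays on the x axis and its log2 change, Tie2-Cre minus no Cre, on the y axis; lysosomal genes are drawn large, in red or blue where they passed the threshold, and 103 genes lie beyond the y axis, which ends at 1.5 on either side. The called lysosomal genes run from -0.81 (Scarb2) to 0.59 (Ctso), inside the span of the other genes.

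Leaving out 1 mouse at a time kept the number of lower members at 6 or 7, while that of higher members fell to between 1 and 3. Scarb2, Ctsh, Ctsc, Ctsf, Gm2a, Arsb and Ctso stayed past the threshold whichever mouse was left out. Sgsh lost its call without mouse 1, 3, 6, 7 or 10 (adjusted p 0.0558 to 0.0825), Fuca1 without mouse 1, 3, 6, 7 or 10 (0.0827 to 0.138), Gaa without mouse 1, 4, 6, 7 or 10 (0.0656 to 0.120), and Npc1 whichever of the 6 was left out (0.0550 to 0.154).

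The promoters of these genes show how far the E-box core is shared by members that differed and members that did not. RefSeq promoters on build GRCm38.p6, which hold 250 bases before and 50 after an annotated start site, were found for 36 of the 40 symbols. The 150 bases before the start site are printed 5′ to 3′ for 6 members that differed and for 2 that did not pass, with the core CACGTG, which reads the same on both strands, in capitals.
Scarb2 (chr5:92505658-92505807, minus strand): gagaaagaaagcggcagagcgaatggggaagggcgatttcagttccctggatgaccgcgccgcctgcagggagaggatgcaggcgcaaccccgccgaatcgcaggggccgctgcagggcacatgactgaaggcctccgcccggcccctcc
Gm2a (chr11:55097835-55097984, plus strand): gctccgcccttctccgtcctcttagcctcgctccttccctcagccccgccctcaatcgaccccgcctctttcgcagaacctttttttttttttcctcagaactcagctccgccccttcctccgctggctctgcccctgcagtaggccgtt
Ctsf (chr19:4855015-4855164, plus strand): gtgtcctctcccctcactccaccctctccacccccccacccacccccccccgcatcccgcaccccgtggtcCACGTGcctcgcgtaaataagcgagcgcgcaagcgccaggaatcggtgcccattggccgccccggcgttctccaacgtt
Gaa (chr11:119267813-119267962, plus strand): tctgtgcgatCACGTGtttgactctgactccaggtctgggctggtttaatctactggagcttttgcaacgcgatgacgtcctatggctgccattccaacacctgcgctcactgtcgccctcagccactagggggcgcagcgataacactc
Sgsh (chr11:119355511-119355660, minus strand): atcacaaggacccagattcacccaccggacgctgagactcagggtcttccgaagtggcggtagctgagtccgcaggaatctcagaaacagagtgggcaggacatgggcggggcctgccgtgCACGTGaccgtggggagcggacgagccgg
Ctso (chr3:81932451-81932600, plus strand): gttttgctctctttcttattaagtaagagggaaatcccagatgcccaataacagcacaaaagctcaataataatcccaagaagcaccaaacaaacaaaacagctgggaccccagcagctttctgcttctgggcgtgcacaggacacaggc
Lamp1 (chr8:13159011-13159160, plus strand): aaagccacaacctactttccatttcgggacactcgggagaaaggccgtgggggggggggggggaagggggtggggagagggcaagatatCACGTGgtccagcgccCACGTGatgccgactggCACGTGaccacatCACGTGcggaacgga
Mcoln1 (chr8:3500369-3500518, plus strand): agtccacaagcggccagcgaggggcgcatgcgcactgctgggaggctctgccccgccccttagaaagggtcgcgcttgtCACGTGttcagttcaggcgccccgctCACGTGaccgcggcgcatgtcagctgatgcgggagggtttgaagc
The core stands 4 times before the start site of Lamp1 and 2 times before that of Mcoln1, neither of which passed the threshold. It stands once each in Ctsf and Gaa, which were lower, and in Sgsh, which was higher. In the windows of Scarb2, Gm2a and Ctso these letters do not occur.

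Of the 36 members with a promoter, 13 (36.1%) held the core somewhere in the 300 bases, as did 8.09% of all 27025 genes in the promoter table and 22.9% of 96 other genes of the lysosome pathway. The 8-base form CACGTGAC, or GTCACGTG on the other strand, contains the core. It was held by 10 members (27.8%), against 2.55% of all genes and 14.6% of the 96 other pathway genes. Of the 12 measured members with the core, 1 was higher, 2 were lower and 9 did not pass, with a median change of -0.08. Of the 23 members without it, 2 were higher, 4 were lower and 17 did not pass, with a median of -0.01. The members that hold the core thus include ones that differed in either direction, and so do the members that lack it. A match of letters is a description and shows no binding.

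**Figure D2:**
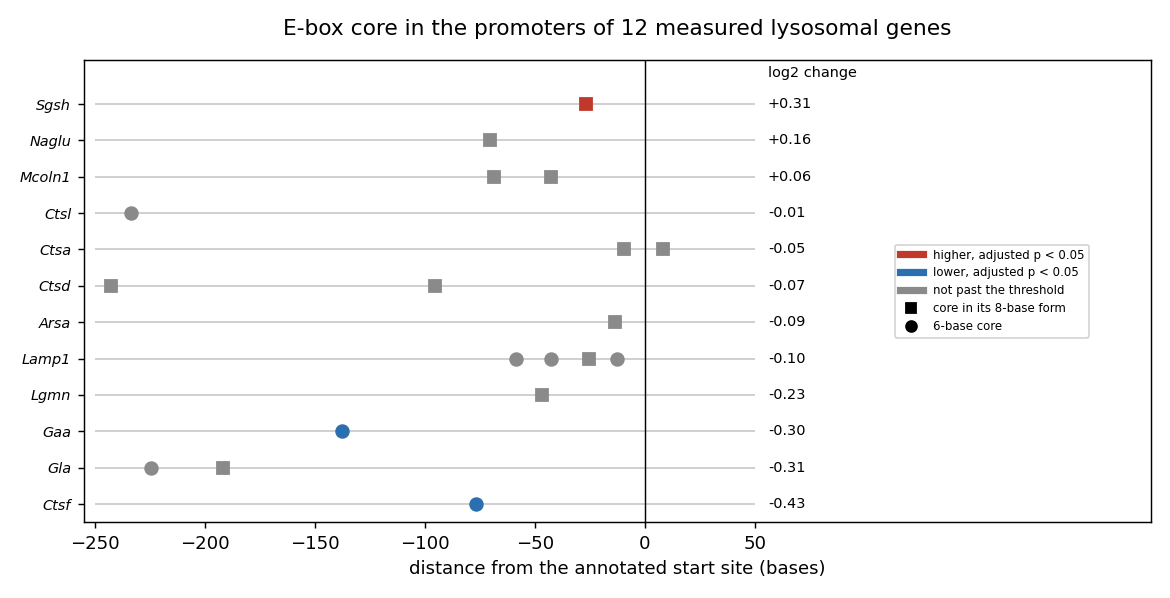
Each row is the promoter of a measured lysosomal gene, from 250 bases before to 50 after the annotated start site (x axis, in bases), with squares where the E-box core stands in its 8-base form and circles where it stands alone; the log2 change, Tie2-Cre minus no Cre, is written at the right and rows are sorted by it. Genes with 1 to 4 matches run from 0.31 (Sgsh) to -0.43 (Ctsf), and 9 of the 12 did not pass the threshold.

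Scarb2 changed most among the members. It encodes LIMP-2, a protein of the lysosomal membrane that carries beta-glucocerebrosidase from the endoplasmic reticulum to the lysosome. Its log2 intensity was 9.65, 9.78 and 9.55 in Tie2-Cre mice 1, 3 and 4, against 10.57, 10.46 and 10.39 in no Cre mice 6, 7 and 10. Every Tie2-Cre mouse lay below every no Cre mouse, and the gap between the groups was wider than the range within either. The change was -0.81 (SE 0.0858, 95% interval -1.01 to -0.62, adjusted p 0.000907), which is 0.569 times the level without Cre.

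The other membrane proteins stood closer to their level without Cre. Npc1, which moves cholesterol out of the lysosome, was higher at 10.03, 10.09 and 9.97 with Tie2-Cre, against 9.72, 9.85 and 9.67 without Cre (change 0.28, SE 0.0754, adjusted p 0.0497). It was the called member nearest to the threshold, and a second, dimmer probe set of the same gene changed by -0.02 (SE 0.0840). With the mean of both probe sets the change was 0.13 and the call was lost (adjusted p 0.271, within 0.0112 to 0.271 over its alternatives). Lamp1 and Lamp2, the abundant glycoproteins that line the lysosomal membrane, averaged 12.69 and 11.79 with Tie2-Cre, against 12.79 and 11.81 without Cre. Neither passed the threshold, and the 95% interval of the change ran from -0.28 to 0.07 for Lamp1 and from -0.17 to 0.13 for Lamp2. The tetraspanin Cd63 (-0.04, SE 0.0654) and the lysosomal calcium channel Mcoln1 (0.06, SE 0.0816) did not pass either, and their groups overlapped.

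Of the 10 cysteine proteases, 3 fell, 1 rose and 6 missed the threshold. Ctsh, a cathepsin that trims peptides from their amino end, had 10.22, 10.21 and 9.87 with Tie2-Cre, against 10.81, 10.77 and 10.78 without Cre. Tie2-Cre mouse 4 lay apart from the other two on the low side, while the 3 no Cre mice nearly coincided. The change of Ctsh was -0.69 (SE 0.101, adjusted p 0.00417). Ctsc, the dipeptidyl peptidase that activates granule proteases in leukocytes, had 7.76, 7.86 and 7.57 with Tie2-Cre, against 8.13, 8.27 and 8.45 without Cre. The groups of Ctsc did not overlap, though both were spread more widely than in most members, and the change was -0.56 (SE 0.109, adjusted p 0.0144). Ctsf, another papain-like cathepsin, had 8.06, 8.10 and 8.10 with Tie2-Cre, against 8.42, 8.61 and 8.53 without Cre. Here the Tie2-Cre mice were the tighter group, and the change was -0.43 (SE 0.0722, adjusted p 0.00727).

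Ctso was the cathepsin that rose. It stood at 9.02, 9.15 and 9.05 with Tie2-Cre, against 8.66, 8.42 and 8.36 without Cre, with no Cre mouse 6 nearest to the other group. The change was 0.59 (SE 0.0926, adjusted p 0.00523), or 1.51 times the level without Cre, and was the largest rise among the members.

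The cathepsins best known as broad lysosomal endopeptidases did not pass the threshold. Ctsb averaged 12.38 ± 0.070 with Tie2-Cre and 12.51 ± 0.027 without Cre, and Ctsl averaged 12.35 ± 0.037 and 12.37 ± 0.029 in the same order (SD, n = 3 each). Every Tie2-Cre mouse lay below every no Cre mouse in Ctsb, while the groups of Ctsl overlapped. The 95% interval of the change was -0.29 to 0.03 for Ctsb and -0.16 to 0.13 for Ctsl, so a change of 0.3 log2 in either direction lies outside both. Ctsk, the collagen-cutting cathepsin of osteoclasts, changed by 0.12 (SE 0.0698) and the carboxypeptidase Ctsz by 0.02 (SE 0.0776). Ctss, which trims the invariant chain in antigen-presenting cells, lay between 5.69 and 5.74 with Tie2-Cre and between 5.67 and 5.76 without Cre. Legumain (Lgmn), which cuts after asparagine and matures other cathepsins, had 10.37, 10.36 and 10.22 with Tie2-Cre, against 10.54, 10.54 and 10.55 without Cre. Its groups did not overlap, but the change of -0.23 (SE 0.0690) missed the threshold (adjusted p 0.0768). It passed among genes with a mean log2 of at least 7 and with the trend and robust options of limma, down to an adjusted p of 0.0159, within 0.0159 to 0.179 over its alternatives.

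None of the 3 aspartic and serine proteases passed in limma, and none had an unadjusted p under 0.05. The aspartic protease Ctsd changed by -0.07 (SE 0.0622), Ctsa, the carboxypeptidase that shields the sialidase Neu1, by -0.05 (SE 0.0653), and the tripeptidyl peptidase Tpp1 by -0.11 (SE 0.0626). In Ctsd and Tpp1 the 3 Tie2-Cre mice still lay below the 3 no Cre mice.

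**Figure D3:**
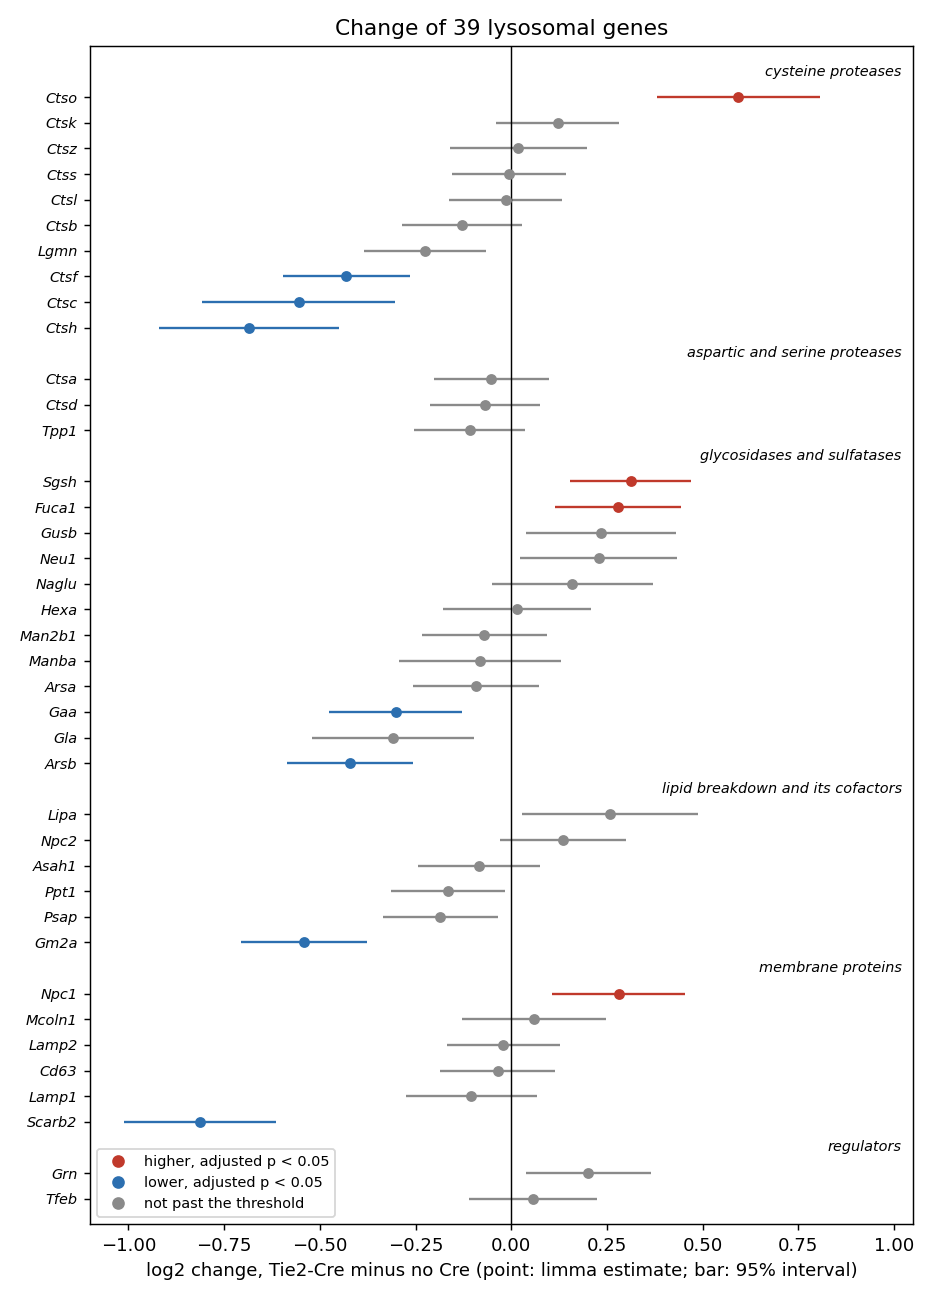
Log2 change of each of the 39 measured lysosomal genes (x axis, Tie2-Cre minus no Cre), grouped by role, with points for the limma estimate and bars for its 95% interval. The 11 called genes are red (4 higher) or blue (7 lower), and grey genes did not pass the threshold.

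Among the enzymes that remove sugars and sulfate, 2 of 12 were higher, 2 lower and 8 did not pass. Arsb, the sulfatase that acts on dermatan and chondroitin sulfate, had 9.26, 9.28 and 9.18 with Tie2-Cre, against 9.72, 9.70 and 9.57 without Cre. The groups stood well apart, with a change of -0.42 (SE 0.0714, adjusted p 0.00762). A dimmer probe set of Arsb changed by -0.30 (SE 0.150), and with the mean of both the call was lost (adjusted p 0.0651, within 0.000864 to 0.0651 over its alternatives). Gaa, which frees glucose from glycogen in the lysosome, had 10.13, 10.23 and 10.05 with Tie2-Cre, against 10.37, 10.47 and 10.48 without Cre (change -0.30, SE 0.0753, adjusted p 0.0381).

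Sgsh, the sulfamidase of heparan sulfate breakdown, had 9.48, 9.54 and 9.47 with Tie2-Cre, against 9.22, 9.22 and 9.10 without Cre. Both groups were narrow, and the change was 0.31 (SE 0.0682, adjusted p 0.0230). Fuca1, which removes fucose from glycoproteins, had 10.38, 10.45 and 10.31 with Tie2-Cre, against 10.04, 10.15 and 10.11 without Cre, which made a rise of 0.28 (SE 0.0709, adjusted p 0.0411). Naglu, which acts beside Sgsh on heparan sulfate, changed by 0.16 (SE 0.0909, adjusted p 0.337), and its groups overlapped.

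Gla, the alpha-galactosidase that breaks down globotriaosylceramide, had 8.41, 8.54 and 8.28 with Tie2-Cre, against 8.81, 8.74 and 8.61 without Cre. The groups did not overlap, and Gla was the member nearest to the threshold from outside, with a change of -0.31 (SE 0.0918, adjusted p 0.0707). It passed among genes with a mean log2 of at least 7 (adjusted p 0.0272) and with the trend and robust options (0.0310), within 0.0272 to 0.199 over its alternatives. It lies on the X chromosome, as does Lamp2 among the members. Gusb, the beta-glucuronidase (0.23, SE 0.0850, adjusted p 0.130), and the sialidase Neu1 (0.23, SE 0.0889, adjusted p 0.154) did not pass although the groups did not overlap. The alpha subunit of beta-hexosaminidase, Hexa, changed by 0.02 (SE 0.0837), the mannosidases Man2b1 and Manba by -0.07 (SE 0.0708) and -0.08 (SE 0.0918), and the sulfatide-degrading Arsa by -0.09 (SE 0.0713). In these 4 genes the groups overlapped.

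Of 6 genes for lipid breakdown and its cofactors, 1 was lower, 0 were higher and 5 did not pass. Gm2a encodes the activator that presents ganglioside GM2 to beta-hexosaminidase. It had 10.57, 10.53 and 10.45 with Tie2-Cre, against 11.05, 11.13 and 10.99 without Cre. All Tie2-Cre mice were lower than all no Cre mice, and the change was -0.54 (SE 0.0712, adjusted p 0.00236), or 0.687 times the level without Cre. Psap, the precursor of the saposins that serve other sphingolipid enzymes, averaged 12.54 ± 0.058 with Tie2-Cre and 12.73 ± 0.014 without Cre (SD, n = 3 each). The groups of Psap did not overlap, but it did not pass (change -0.18, SE 0.0654, adjusted p 0.119). It passed with the trend and robust options and among genes with a mean log2 of at least 7, within an adjusted p of 0.00914 to 0.262 over its alternatives.

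The thioesterase Ppt1 changed by -0.16 (SE 0.0649, adjusted p 0.159), with groups that did not overlap. It passed with the trend and robust options alone (0.0261, within 0.0261 to 0.346 over its alternatives). Acid ceramidase, Asah1, changed by -0.09 (SE 0.0692, adjusted p 0.519). Lipa, the acid lipase that frees cholesterol from its esters, had 11.67, 11.55 and 11.35 with Tie2-Cre, against 11.29, 11.36 and 11.15 without Cre. Its groups met at Tie2-Cre mouse 4, and the change of 0.26 (SE 0.0997) did not pass (adjusted p 0.153). Npc2, which hands that cholesterol to Npc1, changed by 0.14 (SE 0.0712, adjusted p 0.295), and its groups did not overlap.

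The 2 regulators did not pass the threshold. Tfeb, the transcription factor named above, had 7.10, 7.12 and 7.19 with Tie2-Cre, against 7.07, 7.17 and 7.00 without Cre. The groups overlapped, and the change of 0.06 had a 95% interval from -0.11 to 0.22 (SE 0.0723, adjusted p 0.701). Progranulin (Grn), a secreted protein that is cut into granulins in the lysosome, was at 10.87, 10.85 and 10.77 with Tie2-Cre, against 10.66, 10.67 and 10.55 without Cre, and its change of 0.20 missed the threshold (SE 0.0705, adjusted p 0.116). Grn passed among genes with a mean log2 of at least 7 (adjusted p 0.0426) and with the trend and robust options (0.0278), within 0.0278 to 0.293 over its alternatives. Of the 28 members that did not pass, 19 had a 95% interval that lay wholly within 0.3 log2 of 0, and 27 one within 0.5 log2.

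**Figure D4:**
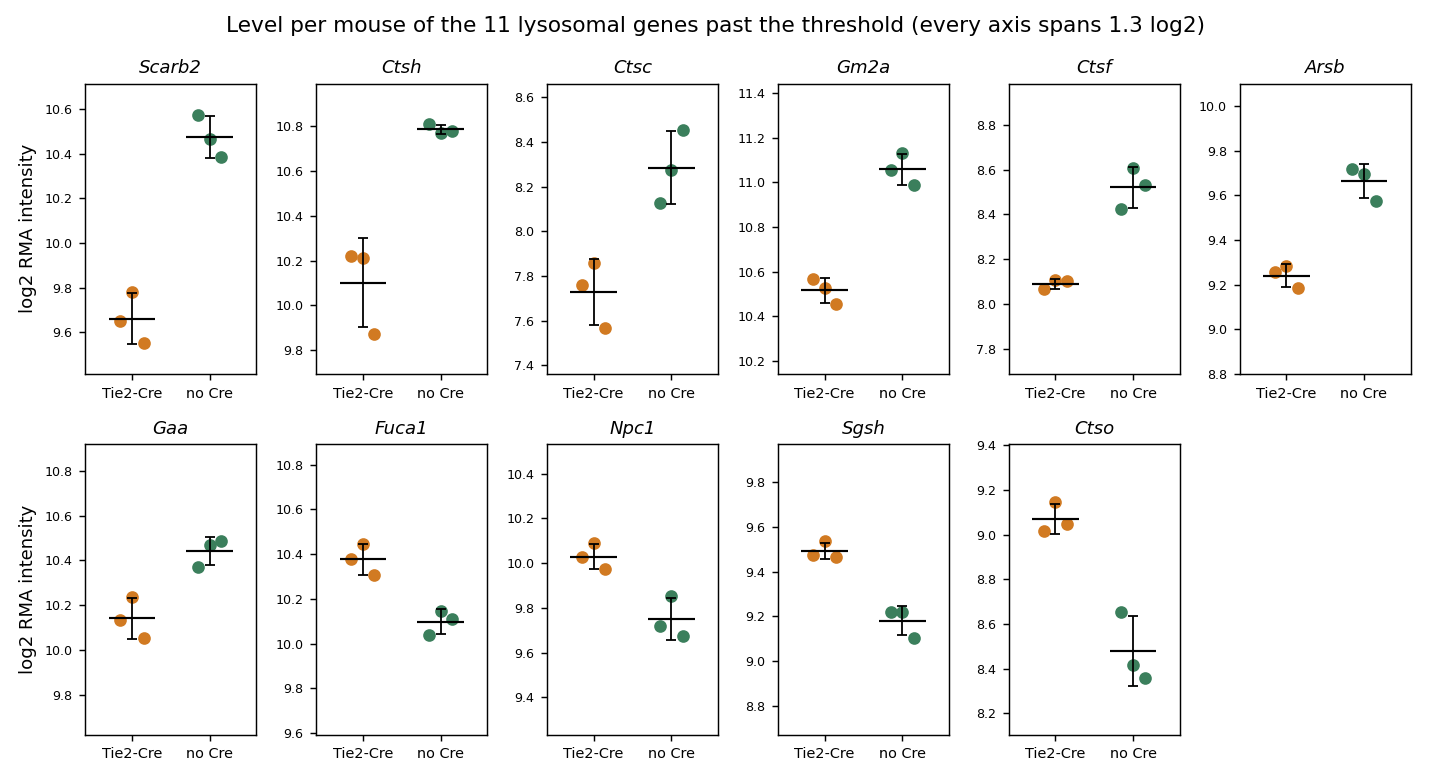
Log2 RMA intensity (y axis) of the 11 lysosomal genes past the threshold in each mouse, Tie2-Cre left (mice 1, 3 and 4) and no Cre right (mice 6, 7 and 10), with a horizontal line at the mean and a bar of 1 SD on either side. In all 11 panels the groups do not overlap, by the widest gap in Scarb2, whose means are 9.66 and 10.47.

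Members shared a pattern within the groups. Tie2-Cre mouse 4 had the lowest value of its group in 29 of the 39 members (74.4%), against 32.0% of all genes, and no Cre mouse 10 in 25 (64.1%), against 38.9% of all genes. The spread was otherwise small, with a median SD over members of 0.0698 with Tie2-Cre and 0.0611 without Cre, compared with 0.102 and 0.0892 over all genes. Of the 39 members, 38 have a mean log2 of at least 7. Neither the lowest array nor the spread was compared with genes of like brightness, so neither can be called particular to the members. Summed on the linear scale, the 39 members came to 80424 to 83657 intensity units per array with Tie2-Cre and to 84482 to 87970 without Cre. The 10 cysteine proteases summed to 17672 to 19300 with Tie2-Cre and 19848 to 20205 without Cre, and the 12 glycosidases and sulfatases to 10000 to 10696 and 9880 to 10540 in that order. Bright probe sets weigh most in these sums. Without mouse 4, the median change over the members was -0.02.

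Other genes of the pathway, from lists taken with earlier results of these data known, were called at a rate nearer to that of all genes. The 117 with a value had a median level of 9.54 with Tie2-Cre and 9.56 without Cre. They split into 8 higher, 10 lower and 99 that did not pass, and their median change was -0.05. That is 15.4% called, against 12.0% of all genes and 19.1% of the genes with a mean log2 of at least 7. The counts fell to between 4 and 5 higher and between 5 and 7 lower when any 1 mouse was left out.

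Of 18 subunits of the V-ATPase, only Atp6v0b, in the membrane sector of the pump, passed, and it was higher (0.34, SE 0.0619, adjusted p 0.0110). It stood at 10.67, 10.65 and 10.71 with Tie2-Cre, against 10.34, 10.35 and 10.33 without Cre. The other 17 lay between -0.22 and 0.22, and the median of all 18 was -0.06.

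Among 20 other hydrolases, 2 were higher and 3 lower. Pla2g15, the lysosomal phospholipase (0.47, SE 0.0645, adjusted p 0.00293), and Idua, the iduronidase of heparan and dermatan sulfate breakdown (0.54, SE 0.0843, adjusted p 0.00523), were higher. Ids, the sulfatase that acts just before Idua on the same chains, was lower at 10.65, 10.76 and 10.77 with Tie2-Cre, against 11.20, 11.24 and 11.13 without Cre (-0.46, SE 0.0709, adjusted p 0.00507), and it lies on the X chromosome. Galc, which breaks down galactosylceramide (-0.49, SE 0.102, adjusted p 0.0185), and Arsk, the glucuronate sulfatase (-0.28, SE 0.0681, adjusted p 0.0363), were lower too. The call of Galc was lost without mouse 1, 3 or 7 (adjusted p 0.0549 to 0.0656) and that of Arsk whichever of the 6 was left out (0.0547 to 0.117).

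Of 20 other lysosomal membrane proteins, 1 was higher and 3 lower. Cd68, a glycoprotein of the lysosomes of macrophages, had 7.23, 7.14 and 7.13 with Tie2-Cre, against 8.27, 8.17 and 8.03 without Cre, and changed by -0.99 (SE 0.0820, adjusted p 0.000288). That gap is larger than the one in Scarb2. Sidt2 (-0.34, SE 0.0746, adjusted p 0.0232) and Tmem192 (-0.37, SE 0.0975, adjusted p 0.0444) were lower, and the chloride-proton exchanger Clcn7 was higher (0.32, SE 0.0754, adjusted p 0.0308). Each of these 3 calls was lost without 5 of the 6 mice, which were 1, 4, 6, 7 and 10 for Sidt2 (adjusted p 0.0501 to 0.0786), 1, 3, 4, 6 and 7 for Tmem192 (0.0831 to 0.138) and 1, 3, 4, 7 and 10 for Clcn7 (0.0602 to 0.106).

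In the machinery that sorts enzymes to the lysosome, 2 of 14 were higher, 0 lower and 12 did not pass. They were M6pr, the smaller mannose 6-phosphate receptor (0.31, SE 0.0752, adjusted p 0.0350), and Gnptg, a subunit of the enzyme that starts the tag (0.24, SE 0.0649, adjusted p 0.0478). The call of M6pr was lost without mouse 3, 4, 6, 7 or 10 (adjusted p 0.0825 to 0.109) and that of Gnptg whichever of the 6 was left out (0.0663 to 0.150). Cst3, the secreted cathepsin inhibitor cystatin C, was the higher one of 7 inhibitors, at 12.06, 11.96 and 12.05 with Tie2-Cre, against 11.58, 11.65 and 11.68 without Cre (0.39, SE 0.0680, adjusted p 0.00886).

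Relatives of Tfeb and the nutrient sensors that control them held 3 lower genes of 17, 0 higher and 14 not past. Tfec, the family member best known from myeloid cells, had 7.49, 7.53 and 7.15 with Tie2-Cre, against 8.33, 8.50 and 8.34 without Cre (-1.0, SE 0.113, adjusted p 0.00122). Rragb and Rragd, GTPases that bring mTORC1 to the lysosome, changed by -0.43 (SE 0.0894, adjusted p 0.0189) and -0.26 (SE 0.0652, adjusted p 0.0377), and Rragb lies on the X chromosome. Rragb is a dim gene, at 5.19 with Tie2-Cre and 5.62 without Cre, against medians of 7.11 and 7.12 over all genes. Rragb lost its call without mouse 3 or mouse 10 (adjusted p 0.0607 to 0.0644), and Rragd lost its call whichever of the 6 was left out (0.0746 to 0.124). Of 21 autophagy genes, Wipi2, which acts where autophagosomes form, was lower (-0.40, SE 0.0637, adjusted p 0.00555). Vps11, a subunit of tethering complexes of endosomes, was higher (0.29, SE 0.0681, adjusted p 0.0291). The call of Vps11 was lost without mouse 1, 3, 4, 6 or 10 (adjusted p 0.0511 to 0.103), and 19 autophagy genes did not pass.

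**Figure D5:**
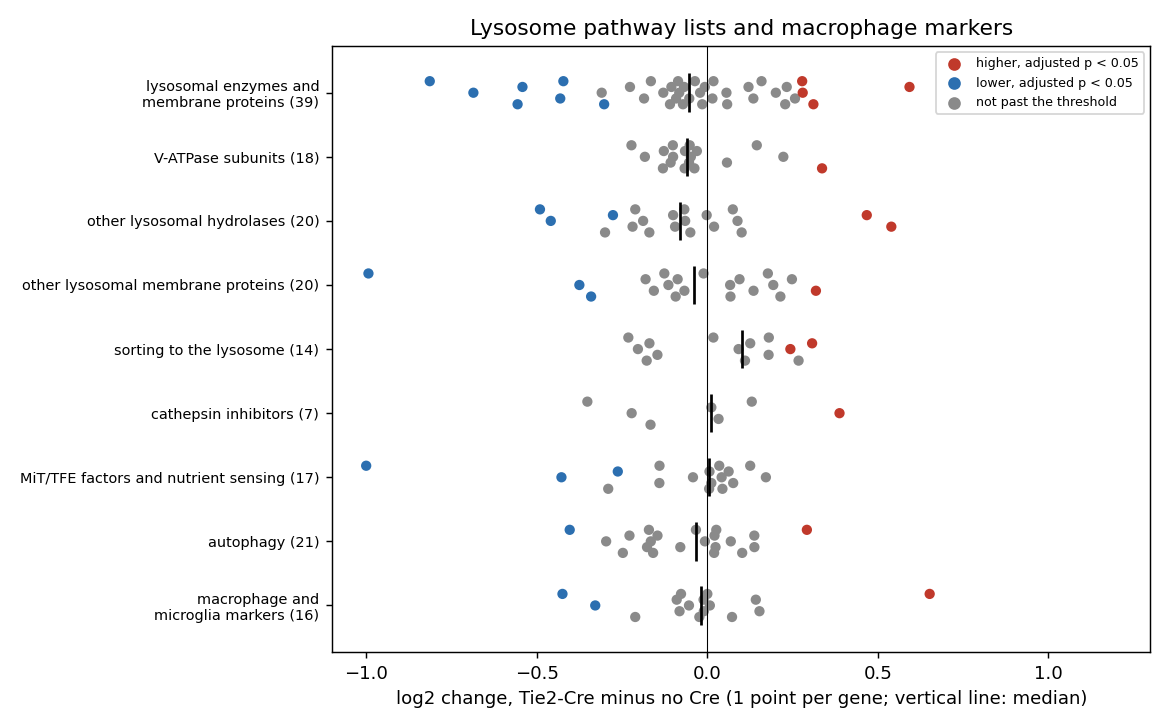
Log2 change, Tie2-Cre minus no Cre (x axis), of each measured gene of the 39 lysosomal genes, of the 7 other pathway lists and of the macrophage and microglia markers, with the number measured in brackets, a vertical line at each median and colours for the calls. The lowest points are Tfec (-1.0) and Cd68 (-0.99).

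Lysosomal genes are strongly expressed in macrophages, so markers of other cells were read in the same arrays. Of 16 macrophage and microglia markers, 1 was higher (Tmem119), 2 were lower (Csf1r and Fcgr3) and 13 did not pass. Of the 16 changes, 10 were negative and 6 positive. Their summed intensity ran from 2092 to 2214 with Tie2-Cre and from 2027 to 2120 without Cre, so that the groups overlapped. Tmem119, the brightest of the 16 (8.82 with Tie2-Cre, 8.16 without Cre), weighs most in this sum. Its rise lifts the Tie2-Cre sums, so their overlap does not show that the other markers were level. Csf1r changed by -0.42 (SE 0.0679, adjusted p 0.00594), while the call of Fcgr3 was lost whichever of the 6 mice was left out (adjusted p 0.0563 to 0.137). Summed pericyte and smooth muscle markers, with 6 of 11 higher and 0 lower, came to 30081 to 33935 with Tie2-Cre and 21405 to 22950 without Cre. Of these 6 calls, that of Pdgfrb was lost without mouse 1, 3, 6, 7 or 10 (adjusted p 0.0749 to 0.105) and that of Myh11 without mouse 1, 6, 7 or 10 (0.0519 to 0.126). Mesothelial markers, with 3 of 8 lower and 0 higher, summed to 1318 to 1506 with Tie2-Cre and 3338 to 3714 without Cre. Upk1b (-3.29) and Upk3b (-1.36) hold most of that gap, since the other 6 genes summed to 691 to 726 with Tie2-Cre and 740 to 795 without Cre, and the call of Krt19 was lost without mouse 1, 3, 4, 6 or 10 (adjusted p 0.0544 to 0.103). The 9 fibroblast markers, with 2 higher and 1 lower, summed to 18503 to 21073 with Tie2-Cre and 22003 to 22282 without Cre, and the 14 endothelial markers to 4658 to 4958 and 5272 to 5485 in that order. Eng, averaging 11.76 with Tie2-Cre and 12.05 without Cre, is by far the brightest of these 14 and weighs most in their sum. Astrocyte and glioma markers were higher in 2 of 7 and lower in 0, with sums of 2876 to 3782 with Tie2-Cre and 1467 to 1534 without Cre. The higher ones were Nes and Pdgfra, and Pdgfra (1.65, SE 0.133, adjusted p 0.000253) is also 1 of the 2 higher fibroblast markers. Without Pdgfra, the other 6 astrocyte and glioma markers summed to 750 to 790 with Tie2-Cre and 580 to 691 without Cre, and the other 8 fibroblast markers to 16377 to 18081 and 21187 to 21440 in that order. Dcn, the brightest of these 8, was lower (-0.76, SE 0.100, adjusted p 0.00244) and holds most of that gap. Lum, another of the 8, was higher (1.27, SE 0.162, adjusted p 0.00209). Neutrophil markers were higher in 0 and lower in 1 of 6 (396 to 428 with Tie2-Cre, 405 to 457 without Cre), which was S100a8, a call lost without mouse 3, 7 or 10 (adjusted p 0.0546 to 0.0605). Of 6 T and NK cell markers 0 passed in limma and 1 had an unadjusted p under 0.05 (547 to 612 with Tie2-Cre, 520 to 568 without Cre). No marker was listed at 0, since RMA leaves every probe set a positive value. Macrophage markers had a median level of 6.92 with Tie2-Cre and 6.85 without Cre, below that of all genes (7.11 and 7.12). So did neutrophil markers (6.21 and 6.11) and T and NK cell markers (6.24 and 6.09). The sums of these 3 lists cannot be read as amounts of the cells. The part of these other cells in the lysosomal results was not tested.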

How the data were processed

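The authors' deposited values are RMA intensities on a linear scale, computed with Expression Console software, per the labels, from 6 Affymetrix Mouse 2.0 ST arrays, 3 a group. RMA corrects background and normalizes quantiles, and it compresses changes of dim genes. The program's version and a genome build are not given in the sources used here. Of 41345 probe sets, 23521 had 1 gene symbol in the array annotation, 1814 several and 16010 none. The brightest probe set of each symbol was used, which left 22180 genes.

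Log2 values were compared, Tie2-Cre minus no Cre, with lmFit and eBayes of limma 3.58.1 (R 4.3.3, two-sided), with Benjamini-Hochberg adjustment over all genes at 0.05, after the code was tested on simulated data. Labels do not pair the mice. Named were all members, of each pathway list up to 3 called genes per direction with the smallest p, up to 3 genes of a marker list, chosen by the sentence on it (sums without Pdgfra, Upk1b and Upk3b were added after their values were seen), Xist, and Pfn1, the gene the study targets, which was added to that rule after its values were seen. The members and lists were chosen with earlier results of these data known. List genes without a single-symbol probe set were not analysed here. Alternatives were all probe sets in the adjustment, a minimum mean log2 of 5 or 7, quantile normalization again, arrays centred on medians, the mean of probe sets, eBayes with trend and robust, and leaving out each mouse.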

Additional observations from a re-analysis of the deposited data

How the results depend on the processing

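With all probe sets in the adjustment, 620 genes were higher and 915 lower, among them 1 lysosomal gene higher (6 lower) and 4 higher and 4 lower genes of the other pathway lists. With eBayes with trend and robust, 11 lysosomal genes and 20 other pathway genes were lower. Leaving out each mouse in turn gave 634 to 903 higher and 910 to 1253 lower genes, 1 to 3 higher and 6 to 7 lower lysosomal genes, and 4 to 5 higher and 5 to 7 lower genes of the other lists. All other counts stayed within 1.5 times. Ctsc, Ctsf, Ctsh, Ctso, Gm2a and Scarb2 kept their calls in all 13 alternatives. The sign turned in 4 members whose change was at most 0.02 in size: Ctsl (0.0071 after another quantile normalization, -0.0336 to 0.0033 without a mouse), Ctss (0.0055 with centred arrays, -0.0344 to 0.0102 without a mouse), Ctsz (-0.0293 to 0.0815 without a mouse) and Hexa (-0.0303 to 0.0821 without a mouse). A minimum mean log2 of 7 left out Ctss. No paired analysis was possible because the groups share no mouse number. With 3 arrays a group and no detection calls, these data set no limit of detection for dim genes such as Ctss.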
